A study of Mus musculus with 18 samples.

Results

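A set of genes was followed here through primary mouse embryonic fibroblasts (MEFs) that carried an oncogenic RAS. They are Nptx1, Gap43, Add2, Prokr2, Sh2d5, Fam78b and Cd34, which makes 7 of the 55401 genes in the count table and 7 of the 30065 genes with a count in any library. Most are better known from neurons, red cells or blood progenitors, and for Fam78b no such tissue is given here. The genes were chosen by measured values of these same libraries, as tissue-restricted genes whose counts went from low in wild-type cells with an empty vector to high in wild-type cells with RAS. That contrast is therefore given for them as a description, without a test. The tests reported for the 7 genes are those of kinase loss under RAS, which share their WT RAS libraries with the contrast that selected the genes.

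The study asked how the ribosomal S6 kinases S6K1 and S6K2 shape senescence, the lasting growth arrest that RAS brings about in primary fibroblasts. Poly(A) RNA was sequenced from 18 MEF cultures in 6 groups of 3 libraries. The S6K1 series held S6K1 wild-type cells with empty vector (WT EV), S6K1 wild-type cells with a constitutively active RAS (WT RAS) and S6K1 knockout cells with the same RAS (KO RAS). The S6K1/S6K2 series held wild-type cells with empty vector, wild-type cells with RAS, and cells without both S6K1 and S6K2 that carried RAS (DKO RAS). All cells came from embryos with the head and viscera removed, were infected with retrovirus and drug-selected as pools rather than clones, and so every group, controls included, carries a vector. Per the methods of the study, S6K1 WT and KO cells came from littermates, whereas the WT cells of the S6K1/S6K2 series came from earlier breedings than the DKO cells. No knockout cells with empty vector were analysed here, so the effect of RAS in KO or DKO cells cannot be told apart from the effect of the genotype. Total counts were between 8319445 and 14402442 per library, and levels are given as CPM (counts of a gene divided by the library size and scaled to a common total), scaled by the TMM method within each series.

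In neurons, the pentraxin Nptx1 is secreted at synapses, where it gathers AMPA-type glutamate receptors, and Gap43 lies under the membrane of growth cones and is a classical marker of axon growth. Add2 (β-adducin) caps actin filaments and joins them to spectrin in the membrane skeleton of red cells, and is also made in the brain. Prokr2 is a G protein-coupled receptor for the prokineticins, best known from the olfactory bulb and from migrating gonadotropin-releasing hormone neurons. Sh2d5 is a brain-enriched adaptor that binds the Rac regulator BCR. Cd34 is a sialomucin on the surface of blood progenitors and endothelium, and some fibroblast populations also carry it. Many neuronal genes are kept silent outside the nervous system by the repressor REST, which binds an element called RE1.

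All 7 genes were found by identifier, and their positions are those of RefSeq for GRCm38.p6. Nptx1 (ENSMUSG00000025582.4) lies on chromosome 11 from 119538719 to 119547820, and Gap43 (ENSMUSG00000047261.9) on chromosome 16 from 42248552 to 42340651. Add2 (ENSMUSG00000030000.10) lies on chromosome 6 from 86028681 to 86124409, and Prokr2 (ENSMUSG00000050558.13) on chromosome 2 from 132369705 to 132385502. Sh2d5 (ENSMUSG00000045349.15) lies on chromosome 4 from 138250411 to 138260968. Fam78b (ENSMUSG00000060568.14) and Cd34 (ENSMUSG00000016494.9) share chromosome 1, from 166999851 to 167091302 and from 194938821 to 194961292. No pair of these genes overlaps, and the other five lie on a chromosome each.

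Upstream sequences were at hand for 3 of the 7 genes, and these 3 are shown for that reason alone. A rise with RAS is how the genes were chosen, so no shared control is read from it. They are RefSeq sequences of GRCm38.p6, written 5′ to 3′ on the strand of the gene and ending at the last base before it. The window of Add2 is chr6:86028431-86028680 on the plus strand, that of Prokr2 chr2:132385503-132385697 on the minus strand and that of Cd34 chr1:194938571-194938820 on the plus strand. Capitals mark motif matches.
Add2: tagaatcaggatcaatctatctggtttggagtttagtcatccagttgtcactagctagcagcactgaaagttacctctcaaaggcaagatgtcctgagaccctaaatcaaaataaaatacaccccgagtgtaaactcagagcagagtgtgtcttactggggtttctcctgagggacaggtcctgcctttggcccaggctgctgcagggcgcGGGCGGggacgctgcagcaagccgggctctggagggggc
Prokr2: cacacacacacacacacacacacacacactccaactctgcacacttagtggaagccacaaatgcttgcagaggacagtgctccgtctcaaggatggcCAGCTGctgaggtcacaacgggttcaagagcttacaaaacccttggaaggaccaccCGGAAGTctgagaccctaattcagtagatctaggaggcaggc
Cd34: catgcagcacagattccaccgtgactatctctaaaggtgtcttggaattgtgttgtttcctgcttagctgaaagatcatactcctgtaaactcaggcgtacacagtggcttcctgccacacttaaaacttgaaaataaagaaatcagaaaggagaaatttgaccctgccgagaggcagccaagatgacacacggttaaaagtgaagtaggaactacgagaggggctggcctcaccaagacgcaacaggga
The motifs were searched on both strands over the 250 bases before each annotated start. For the AP-1 site the letters searched were TGACTCA, and for the cyclic AMP response element (CRE) they were TGACGTCA. The ETS motif was spelled CGGAAGT and the motif of the erythroid factor family was spelled GATAAG. A GC box was the run GGGCGG, an E-box was the run CAGCTG, and the core promoter box was the run TATAAA. The element RE1 was searched as its left part, spelled TTCAGCACC, and separately as its right part, which was spelled GGACAGC. Add2 held 1 GC box, from 39 to 34 bases before the start. Prokr2 held 1 ETS match from 97 to 91 bases before its annotated start, 1 E-box from 153 to 148, and GC boxes from 45 to 40 and from 23 to 18. Those GC boxes fall in 55 bases that lie inside the gene as RefSeq draws it and are not printed. Cd34 held no match to any of these letters. Among 32851 mouse promoters with a window of the same length, 32.7% held the GC box, 13% the E-box and 4.92% the ETS letters. The shares of the motifs that none of the 3 windows held were 4.46% for AP-1, 1.55% for CRE, 6.55% for the erythroid factor motif, 12.4% for the core promoter box, and 0.301% and 5.28% for the RE1 parts. The windows had 53.2% (Add2), 59.2% (Prokr2) and 46.4% (Cd34) G or C over 250 bases, and the median over all promoters was 52.4%.

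Before the members, the labels were checked. Rps6kb1, which encodes S6K1, stood at 68.9 ± 6.73 (mean ± SD, n = 3) in WT RAS and at 30.6 ± 6.73 CPM in KO RAS of the S6K1 series, and 80.5 ± 4.44 and 37.4 ± 2.69 CPM in WT RAS and DKO RAS of the S6K1/S6K2 series. Rps6kb2, which encodes S6K2, went from 25.8 ± 2.67 to 2.83 ± 0.186 CPM in the latter pair. Hras was at 61.7 ± 10.9 CPM in EV and 117 ± 2.34 CPM in WT RAS of the S6K1 series, and at 58.8 ± 7.55 and 98.9 ± 6.74 CPM in the S6K1/S6K2 series. The KO and DKO means of Rps6kb1 were 44.4% and 46.5% of WT RAS, and no library went against its label.

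Nptx1 was near absent from EV cells of the S6K1 series. In EV cells of the other it was the most variable of the 7 genes, with an SD of 69.6% of its mean. Its 3 EV libraries had 0.834, 1.64 and 1.19 CPM against 212, 395 and 246 CPM in WT RAS. In the S6K1/S6K2 series EV gave 20.0, 14.6 and 2.97 CPM and WT RAS gave 287, 341 and 162 CPM. All RAS values lay above all EV values, and the EV libraries of the S6K1/S6K2 series differed among themselves far more than those of the S6K1 series. The ratio of the RAS mean to the EV mean was 233 in the S6K1 series and 21.0 in the S6K1/S6K2 series, with a log2 fold change of 7.86 (SE 0.44) and 4.39 (SE 0.57). The RAS means themselves, 284 ± 96.9 and 264 ± 91.7 CPM, were close, and it was the EV means, 1.22 ± 0.402 and 12.5 ± 8.72 CPM, that set these ratios apart.

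Gap43 was well above the floor in EV cells as well. EV libraries of the S6K1 series had 47.6, 36.6 and 29.3 CPM, against 485, 446 and 309.7 CPM in WT RAS. EV libraries of the S6K1/S6K2 series had 17.9, 28.7 and 34.5 CPM, against 467, 389.7 and 399 CPM in WT RAS. The lowest RAS library stood 6.51 times above the highest EV library in the first series and 11.3 times in the second. The ratio of means was 10.9 (log2 fold change 3.45, SE 0.29) and 15.5 (3.95, SE 0.27).

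Add2 was the gene with the fewest reads in EV cells of the S6K1 series. Its EV libraries there held 1, 0 and 1 reads, and the WT RAS libraries 154, 248 and 312 reads (13.1, 19.3 and 25.0 CPM). The ratio of summed counts, scaled for depth, was 373, with an exact 95% interval from 103 to 3089 that covers counting error only. In the S6K1/S6K2 series, EV libraries had 0.174, 0.706 and 0.524 CPM and WT RAS libraries 17.5, 16.8 and 14.0 CPM, a ratio of means of 34.3 (log2 fold change 5.07, SE 0.46). The RAS values of the 2 series overlapped, and the EV values did not.

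Prokr2 had 1.67, 1.79 and 0.915 CPM in EV and 14.0, 22.6 and 18.2 CPM in WT RAS of the S6K1 series, a ratio of means of 12.5 (log2 fold change 3.62, SE 0.40). In the S6K1/S6K2 series the EV libraries held 2, 3 and 3 reads, against 10.9, 14.1 and 14.0 CPM with RAS. There the ratio of summed counts was 55.8, with an exact 95% interval from 28.0 to 130.1 for counting error. The EV level of this receptor was thus lower in the S6K1/S6K2 series, the opposite order to Nptx1 and Add2.

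Sh2d5 and Fam78b gave nearly the same ratio in both series. Sh2d5 had 0.904, 1.19 and 1.10 CPM in EV and 38.2, 49.3 and 24.4 CPM in WT RAS of the S6K1 series, and 0.523, 0.353 and 0.786 against 20.9, 21.8 and 15.5 CPM in the S6K1/S6K2 series. Its ratio of means was 35.1 and 35.0, with log2 fold changes of 5.12 (SE 0.33) and 5.10 (SE 0.30). Both its EV and its RAS levels were lower in the S6K1/S6K2 series, without overlap between the series. Fam78b had 1.67, 1.64 and 2.38 CPM in EV and 27.1, 40.7 and 32.8 CPM in WT RAS of the S6K1 series, and 1.39, 1.15 and 1.66 against 24.1, 22.1 and 25.5 CPM in the S6K1/S6K2 series. The ratio was 17.7 and 17.1 (log2 fold changes 4.15, SE 0.25, and 4.08, SE 0.26).

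Cd34 had the smallest ratio of the 7 genes in both series. It was at 17.7, 19.6 and 17.7 CPM in EV and 87.4, 118 and 92.3 CPM in WT RAS of the S6K1 series. It was at 20.3, 18.1 and 10.8 CPM in EV and 102, 117 and 80.9 CPM in WT RAS of the S6K1/S6K2 series. The ratio of means was 5.41 (log2 fold change 2.44, SE 0.14) and 6.09 (2.61, SE 0.28), and every RAS library was above every EV library.

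**Figure D1:**
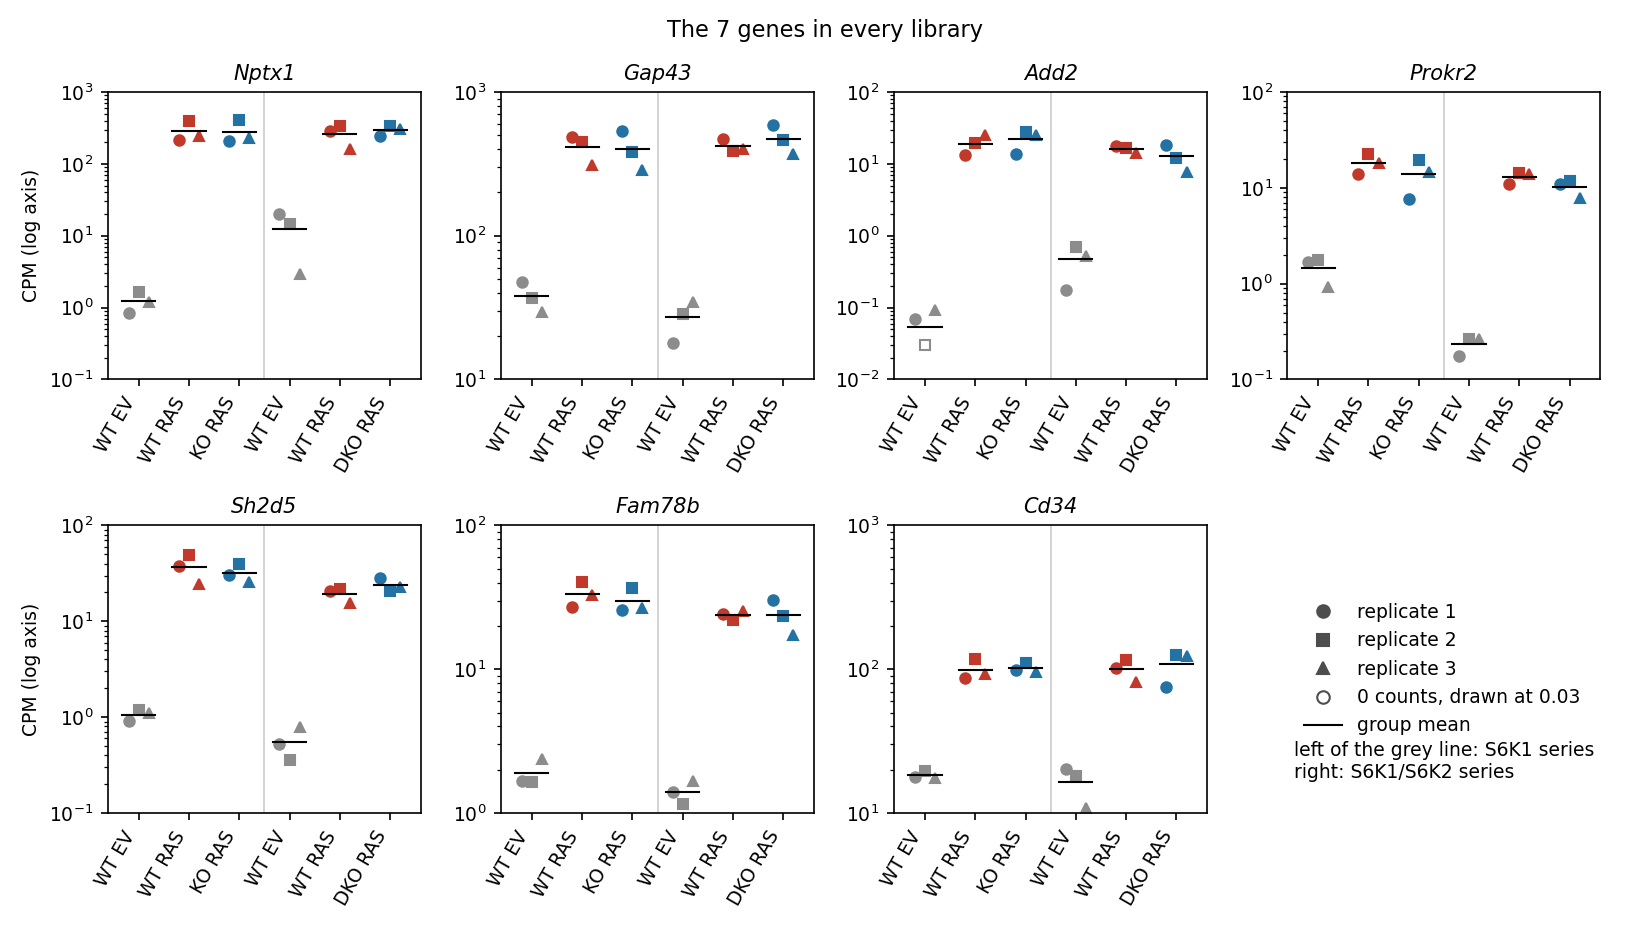
CPM (log axis, TMM-scaled within each series) of the 7 genes in all 18 libraries, with EV in grey, WT RAS in red, KO or DKO RAS in blue, symbols for the replicate number and a line at the group mean. In each panel the 3 EV libraries of a series lie below its 6 RAS libraries, and the open square in the Add2 panel is a library with 0 reads.

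All 7 genes passed the filter on low counts in both series. In all 7, the 6 RAS libraries of a series (WT and kinase-deficient) lay above its 3 EV libraries, a pattern found for 12.7% of all tested genes in the S6K1 series and 17% in the S6K1/S6K2 series. Genes higher in WT RAS than in WT EV at an adjusted p under 0.05 (edgeR quasi-likelihood test, Benjamini-Hochberg) made up 7.15% of 14036 tested genes in the S6K1 series and 13.5% of 13881 in the S6K1/S6K2 series. Since the genes were picked on this contrast, nothing is read from these shares. Between the series, the EV values of 4 of the 7 genes (Nptx1, Add2, Prokr2 and Sh2d5) and the WT RAS values of 2 (Sh2d5 and Fam78b) did not overlap. Of the 13550 genes tested in both series, 26.6% had no overlap in EV and 21% had none in WT RAS. The series were separate experiments scaled separately, so series and batch cannot be told apart in such differences.

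The name given to these genes was set against marker lists. In the neuron list, 9 of 16 genes were tested, and in each series 5 rose and 2 fell with RAS (3 fell in the S6K1 series with the replicate number as a block), with a median log2 fold change of 1.60 in the S6K1 series and 2.81 in the S6K1/S6K2 series, against 0.00 and −0.02 for all tested genes. Genes that fell with RAS made up 6.09% of all tested genes in the S6K1 series and 12.7% in the S6K1/S6K2 series. With the block, 18.1% of all tested genes of the S6K1 series rose and 18.1% fell, and the blocked counts of each list in that series stand against these shares. Blocked counts of the S6K1/S6K2 series have no such share here. In that series the DKO libraries share only a number with the WT libraries, which limits what its block can adjust for. Syn1, a synaptic vesicle protein, rose with RAS in both series, the S6K1 series going from 6.34 ± 0.236 to 19.2 ± 2.73 CPM and the other from 2.42 ± 0.853 to 17.1 ± 1.66 CPM (adjusted p 0.000569 and 0.0002, edgeR). Nefl, the light neurofilament chain, held 5 reads in all EV libraries of the S6K1 series and 1241 in WT RAS, a scaled ratio of 259.6 with an exact interval from 111 to 801 for counting error, and rose there and in the S6K1/S6K2 series (adjusted p 0.000371 and 0.00116, edgeR). Snap25, of the vesicle fusion machinery, had no read in EV and 93 reads in WT RAS of the S6K1 series, where it rose (adjusted p 0.00185, edgeR), and in the S6K1/S6K2 series it rose from 0.438 ± 0.232 to 8.04 ± 1.68 CPM (adjusted p 0.00053, edgeR). A pair of well-known neuronal cytoskeleton genes went the other way. Map2 fell from 26.3 ± 6.34 to 3.21 ± 1.82 CPM and from 70.7 ± 19.8 to 10.3 ± 2.95 CPM (adjusted p 0.00353 and 0.000766, edgeR), and Tubb3 fell from 34.3 ± 2.002 to 9.46 ± 2.86 CPM in the S6K1 series (adjusted p 0.00129), with 14.2 ± 15.5 and 8.82 ± 2.81 CPM in the S6K1/S6K2 series (adjusted p 0.489). Syt1, the calcium sensor of synaptic vesicles, in the S6K1/S6K2 series fell by 2.696 on the log2 scale (SE 0.48, adjusted p 0.00371, edgeR) and had −1.67 (SE 0.67) in the S6K1 series (adjusted p 0.145, and 0.00888 with the block). Rbfox3, Elavl3 and Gad1 stayed at or below 3 reads in each of the 18 libraries. The summed level of the 16 genes was 80.8 to 92.9 CPM in EV and 99.95 to 130.1 CPM in WT RAS of the S6K1 series, and overlapped in the S6K1/S6K2 series (95.2 to 158 and 136 to 169 CPM).

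The genes that define red cells were at or near 0 in every group. Of 16 erythroid genes, 13 had an identifier. Among these 13, the globin genes Hba-a1, Hba-a2, Hbb-bh1 and Hbb-y, the lineage factor Gata1 and the anion exchanger Slc4a1 had no read in any of the 18 libraries. With 0 reads, up to 0.361 CPM could have gone unseen in the library with the lowest total, and 0.208 CPM in that with the highest. The summed level of the list was 0.792 to 2.90 CPM over all libraries. The erythropoietin receptor gene Epor had a log2 fold change of −0.32 (SE 0.53) and was not called (adjusted p 0.685, edgeR) in the S6K1/S6K2 series. The word erythroid thus rests on where Add2 is otherwise found, and not on other genes of that lineage.

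Cd34 was examined against endothelial, blood progenitor and fibroblast genes. Of the endothelial list, 8 of 14 genes were tested in the S6K1 series, of which 3 rose and 1 fell (4 with the replicate block), and 6 in the S6K1/S6K2 series, of which 2 rose and 2 fell (medians −0.56 and 0.48). Cdh5 (VE-cadherin) held 3 reads over the EV libraries and 103 over the WT RAS libraries of the S6K1 series, a scaled ratio of 35.9 with an exact interval from 11.9 to 177, and 1 against 77 reads in the S6K1/S6K2 series, a ratio of 92.6 with an interval from 16.1 to 3704. The endothelial factor Erg fell in both series, from 7.44 ± 2.31 to 1.54 ± 0.616 CPM and from 20.1 ± 6.77 to 4.81 ± 3.50 CPM (adjusted p 0.00361 and 0.0145, edgeR). Summed endothelial levels overlapped between EV and WT RAS in both series, at 23.1 to 32.5 and 26.2 to 32.8 CPM in the S6K1 series. Among blood progenitor genes, none of 9 tested was called in the S6K1 series by edgeR, with 2 lower and none higher once the replicate number was a block, and 1 of 8 in the S6K1/S6K2 series, Runx1, which went up from 21.6 ± 3.30 to 35.2 ± 2.67 CPM (adjusted p 0.00761, edgeR). In the S6K1 series Runx1 had 43.9 ± 7.58 CPM in EV and 30.0 ± 2.57 CPM in WT RAS (adjusted p 0.0595, and 0.00114 with the block). Of 9 genes that mark Cd34-positive fibroblasts, 8 were tested and 1 fell in the S6K1 series (3 rose and 1 fell with the block), whereas all 9 were tested, 4 rose and 1 fell in the S6K1/S6K2 series. In the S6K1/S6K2 series Ly6a (Sca-1) rose from 143 ± 92.3 to 426 ± 67.8 CPM (adjusted p 0.0368, edgeR) and had 209 ± 32.3 and 311 ± 76.3 CPM in the S6K1 series (adjusted p 0.123, and 0.0131 with the block). Dpt, the matrix protein dermatopontin, fell in both (log2 fold changes −1.67 and −2.53, adjusted p 0.0203 and 0.00701). Of 13 general fibroblast genes, 1 rose and 4 fell in the S6K1 series (4 and 6 with the block) and 1 rose and 5 fell in the S6K1/S6K2 series (1 and 6 with the block). Of 9 glial genes 2 were tested and 1 was called, higher in the S6K1/S6K2 series. These are bulk libraries, in which more cells of a type and more RNA per cell cannot be told apart.

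The partners and relatives of each gene were counted next. Of 13 relatives (paralogs, or genes alike in a domain or role), 10 were tested and none was called in the S6K1 series in the fit without the replicate block. With it 1 was higher and 3 were lower, and in the S6K1/S6K2 series 2 of 9 rose and 3 fell. Nptx2, a relative of Nptx1 that also acts at synapses, had 10.3 ± 0.266 and 10.9 ± 2.09 CPM in EV and WT RAS of the S6K1 series and 10.03 ± 3.42 and 10.9 ± 3.54 CPM in the S6K1/S6K2 series. The pentraxin receptor Nptxr had log2 fold changes of 0.61 (SE 0.26) and 0.30 (SE 0.21), neither called without the block (adjusted p 0.171 and 0.33, and 0.0324 with it in the S6K1 series). Of 6 tested pentraxin and AMPA receptor genes, 2 fell in the S6K1 series and none was called in the S6K1/S6K2 series without the block. Of the receptor subunits that Nptx1 gathers, Gria1 (log2 fold change −1.63, SE 0.39, adjusted p 0.0242) and Gria3 (−0.69, SE 0.19, adjusted p 0.0455) fell in the S6K1 series, and neither was called in the S6K1/S6K2 series (−1.63, adjusted p 0.0519, or 0.0386 with the block, and −0.29, adjusted p 0.181). Basp1, a growth cone protein of the same family of membrane substrates as Gap43, was at 374 ± 55.7 and 308 ± 34.8 CPM in EV and WT RAS of the S6K1 series and at 367 ± 50.5 and 313 ± 45.0 CPM in the S6K1/S6K2 series, not called without the block (adjusted p 0.334 and 0.297, and 0.0221 with it in the S6K1 series).

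For Add2, the ubiquitous α-adducin Add1 had log2 fold changes of −0.14 (SE 0.10) and −0.02 (SE 0.12), neither called (adjusted p 0.43 and 0.926, edgeR). The γ-adducin Add3 fell in the S6K1/S6K2 series from 106 ± 14.1 to 52.7 ± 8.10 CPM (adjusted p 0.00611) and had 51.8 ± 8.31 and 29.6 ± 9.09 CPM in the S6K1 series (adjusted p 0.063, and 0.000484 with the replicate block). Of the red cell membrane skeleton, 1 of 13 tested genes rose and none fell in the S6K1 series, with 4 higher and 4 lower under the block. In the S6K1/S6K2 series 2 of 12 rose and 1 fell, with 3 and 1 under the block. Stomatin (Stom), an integral protein of that membrane, was the gene that rose in both without the block, from 153 ± 10.9 to 270.2 ± 19.8 CPM and from 132 ± 3.13 to 319 ± 36.6 CPM (adjusted p 0.00241 and 0.0016). The ligands of Prokr2, Prok1 and Prok2, had at most 3 reads in any library. The other prokineticin receptor, Prokr1, fell in the S6K1/S6K2 series from 8.76 ± 2.47 to 1.96 ± 0.0683 CPM (adjusted p 0.00113) and had 1.38 ± 0.951 and 1.69 ± 0.217 CPM in the S6K1 series (adjusted p 0.756). Of 5 genes of the BCR and Rac list, none was called in the S6K1 series without the block (2 rose with it), and 1 rose and 1 fell in the S6K1/S6K2 series. Bcr, the binding partner of Sh2d5, rose in the S6K1/S6K2 series from 61.9 ± 10.3 to 92.5 ± 6.76 CPM (adjusted p 0.0115) and had 66.9 ± 12.5 and 97.3 ± 14.6 CPM in the S6K1 series (adjusted p 0.0965, and 0.000342 with the block). Sh2d6, another SH2 adaptor, rose in the S6K1/S6K2 series by 2.13 on the log2 scale (adjusted p 0.00748) and had −0.06 in the S6K1 series (adjusted p 0.94), and the difference between the series was not tested. Sh2d4a and Sh2d4b were too low to test, and Sh2d7 held at most 3 reads in any library. Fam78a, the paralog of Fam78b, had 1.38 ± 1.01 and 1.27 ± 0.619 CPM in the S6K1 series and was too low to test in the other. Of the relatives of Cd34, podocalyxin (Podxl) rose in the S6K1/S6K2 series from 0.700 ± 0.610 to 3.42 ± 0.856 CPM (adjusted p 0.0155) and endoglycan (Podxl2) fell from 25.2 ± 6.31 to 12.6 ± 1.93 CPM (adjusted p 0.0276), and in the S6K1 series neither was called without the block (log2 fold changes 1.06 and −0.56, adjusted p 0.294 and 0.334), and Podxl2 was lower there with it (−0.55, adjusted p 0.0336).

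Axon growth genes and REST target genes were counted as the wider pathways of the neuronal members. Of 25 tested axon growth genes, 7 rose and 3 fell in the S6K1 series, with 12 and 6 under the replicate block, and 11 rose and 2 fell in the S6K1/S6K2 series (median log2 fold changes 0.41 and 0.79). Sprr1a, induced in injured axons and in squamous epithelium, rose from 0.545 ± 0.249 to 19.9 ± 7.17 CPM and from 1.49 ± 1.11 to 8.81 ± 4.18 CPM (adjusted p 0.000257 and 0.0231, edgeR). Crmp1, which carries semaphorin signals to the cytoskeleton, rose from 23.3 ± 6.43 to 67.3 ± 6.51 CPM and from 7.84 ± 5.08 to 58.0 ± 15.6 CPM (adjusted p 0.00169 and 0.0016). Marcks, a membrane-bound kinase substrate akin to Gap43, fell from 602 ± 34.5 to 230.0 ± 18.4 CPM and from 821 ± 270.1 to 217 ± 20.1 CPM (adjusted p 0.000788 and 0.000988). Of 13 tested neuronal genes with an RE1 site, 3 rose and none fell in the S6K1 series, with 6 and 2 under the block. In the S6K1/S6K2 series 5 rose and 2 fell, with 7 and 2 under the block. The medians without the block were 0.58 and 1.25. Syn1 and Snap25 belong to this list as well as to the neuron list. Of 9 genes of the REST repressor complex, none was called in the S6K1 series without the block, and 1, Rcor3, fell in the S6K1/S6K2 series from 42.5 ± 6.78 to 29.6 ± 5.01 CPM (adjusted p 0.0419). Rcor3 was the gene of this list called with the block in the S6K1 series, also lower (log2 fold change −0.32, adjusted p 0.0292).

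**Figure D2:**
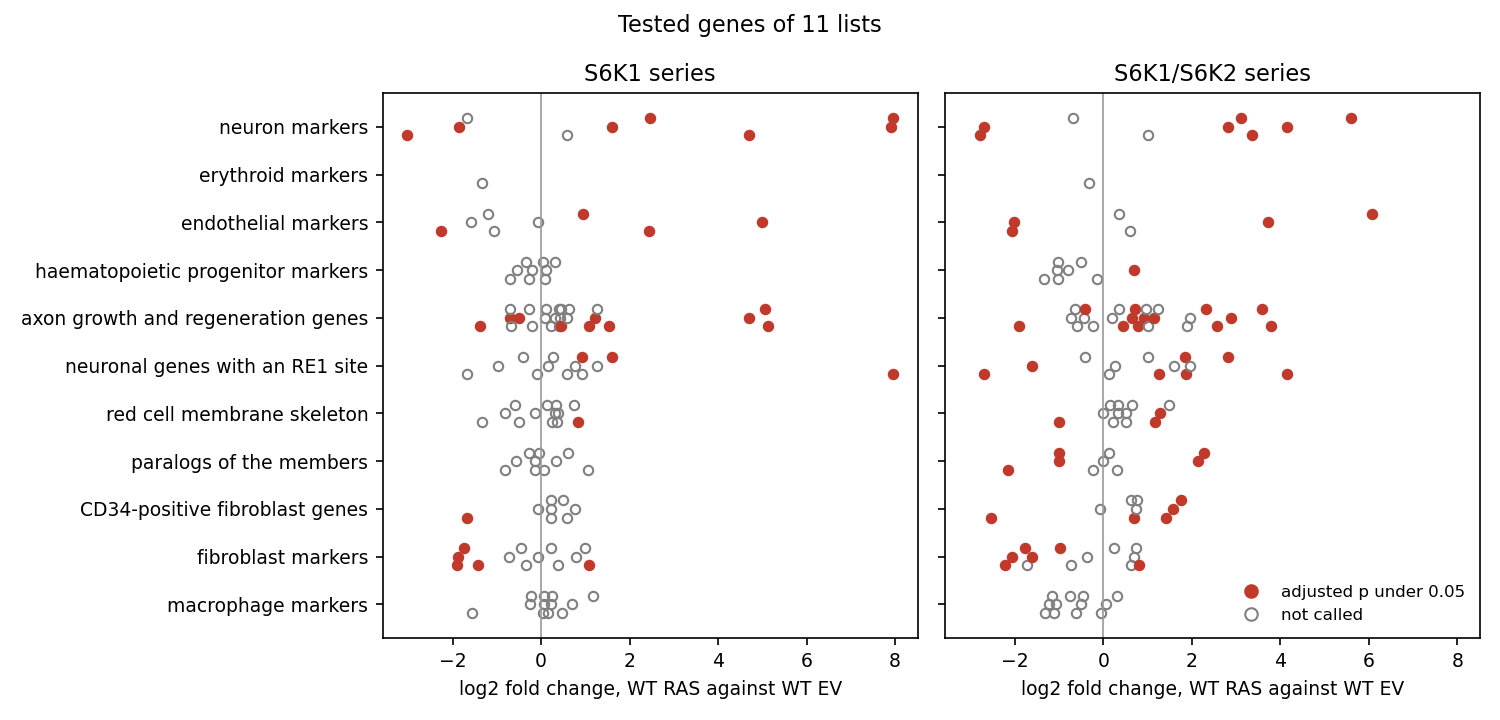
Log2 fold change of WT RAS against WT EV (edgeR) for each tested gene of 11 lists, filled red where the adjusted p was under 0.05. In the neuron row of both panels, 5 filled points lie to the right of 0 and 2 to the left, and the erythroid row holds 1 open point. Points far to the right such as Nefl, Snap25 and Cdh5 rest on EV libraries with few or no reads.

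To ask whether the 7 genes depended on the S6 kinases, RAS cells without the kinases were compared with WT RAS cells. The Nptx1 values were 209.8, 403 and 228 CPM in the KO libraries and 247, 332 and 304 CPM in the DKO libraries. Gap43 had 534, 382 and 285 CPM in KO and 589, 461 and 369.8 CPM in DKO libraries. Cd34 had 99.2, 110.4 and 95.3 CPM in KO and 75.7, 126 and 123 CPM in DKO libraries. For these 3 genes both kinase-deficient groups overlapped WT RAS, and the mean was between 96.8% and 113% of the WT RAS mean. Add2 had 13.7, 27.5 and 25.5 CPM in KO and 18.5, 11.9 and 7.75 CPM in DKO libraries, and Prokr2 had 7.63, 19.5 and 14.8 CPM in KO and 10.98, 11.8 and 7.84 CPM in DKO libraries. Sh2d5 had 30.4, 40.0 and 26.0 CPM in KO and 28.3, 20.6 and 23.0 CPM in DKO libraries, and Fam78b had 26.0, 36.9 and 26.5 CPM in KO and 30.5, 23.3 and 17.4 CPM in DKO libraries. The ranges of WT RAS and kinase-deficient RAS libraries overlapped for 7 of 7 genes in each series, as they did for 92% of all tested genes in the S6K1 series and 93.9% in the S6K1/S6K2 series. The mean of the KO libraries was between 76.6% (Prokr2) and 116% (Add2) of the WT RAS mean, and that of the DKO libraries between 78.6% (Prokr2) and 123% (Sh2d5).

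None of the 7 genes was called after S6K1 loss, where 1 of 14036 genes passed (0.00712%), with 963 at an unadjusted p under 0.05, none of the 7 among them. The log2 fold changes were −0.02 (95% interval −0.70 to 0.66) for Nptx1, −0.05 (−0.64 to 0.55) for Gap43, 0.22 (−0.49 to 0.92) for Add2 and −0.38 (−1.14 to 0.38) for Prokr2. They were −0.21 (−0.78 to 0.35) for Sh2d5, −0.17 (−0.63 to 0.29) for Fam78b and 0.04 (−0.26 to 0.34) for Cd34, and each adjusted p was 0.997 in edgeR. Rps6kb1, the targeted gene, was itself not called by this test (log2 fold change −1.17, adjusted p 0.234). DESeq2 called 97 genes, none of the 7 among them. A p above the threshold does not show equal levels, and the intervals give the changes that these libraries allow. The replicate numbers pair the libraries of this series, and with the number as a block 583 genes (4.15%) were called, of which none was among the 7 (adjusted p 0.298 to 0.857). The blocked intervals were narrower, at −0.20 to 0.13 for Nptx1, −0.26 to 0.12 for Gap43, −0.14 to 0.22 for Cd34 and −0.85 to 0.02 for Prokr2, whose level was lower in KO than in WT RAS in 3 of 3 same-numbered pairs (log2 fold change −0.42, SE 0.19). Fam78b was also lower in 3 of 3 pairs (blocked log2 fold change −0.17, interval −0.44 to 0.11), and the blocked value of Add2 was 0.21 (interval −0.11 to 0.52).

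None of the 7 was called after loss of both kinases, where 3 of 13881 genes passed (0.0216%), with 179 at an unadjusted p under 0.05, none of the 7 among them. The log2 fold changes were 0.16 (95% interval −0.92 to 1.24) for Nptx1, 0.18 (−0.35 to 0.70) for Gap43, −0.34 (−1.10 to 0.43) for Add2 and −0.35 (−0.86 to 0.17) for Prokr2. They were 0.30 (−0.18 to 0.79) for Sh2d5, −0.01 (−0.48 to 0.46) for Fam78b and 0.11 (−0.46 to 0.68) for Cd34, and each adjusted p was 1.00 in edgeR. DESeq2 called 10 genes, none of the 7 among them. Of the 7 genes, Prokr2 and Fam78b had a value below 0 in both loss comparisons. That of Fam78b after loss of both kinases was −0.01 (SE 0.21). The share of all tested genes below 0 in both was not counted, so nothing is read from this. The loss effects of the 2 series were compared in 1 fit over 18 libraries, in which 1 of 14483 genes differed (0.0069%), with 178 at an unadjusted p under 0.05, and none of the 7 was called. The furthest from 0 were Sh2d5, at 0.55 (interval −0.18 to 1.29), and Add2, at −0.52 (−1.55 to 0.50), for the loss effect of the S6K1/S6K2 series minus that of the S6K1 series. Series and batch cannot be told apart in this fit.

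**Figure D3:**
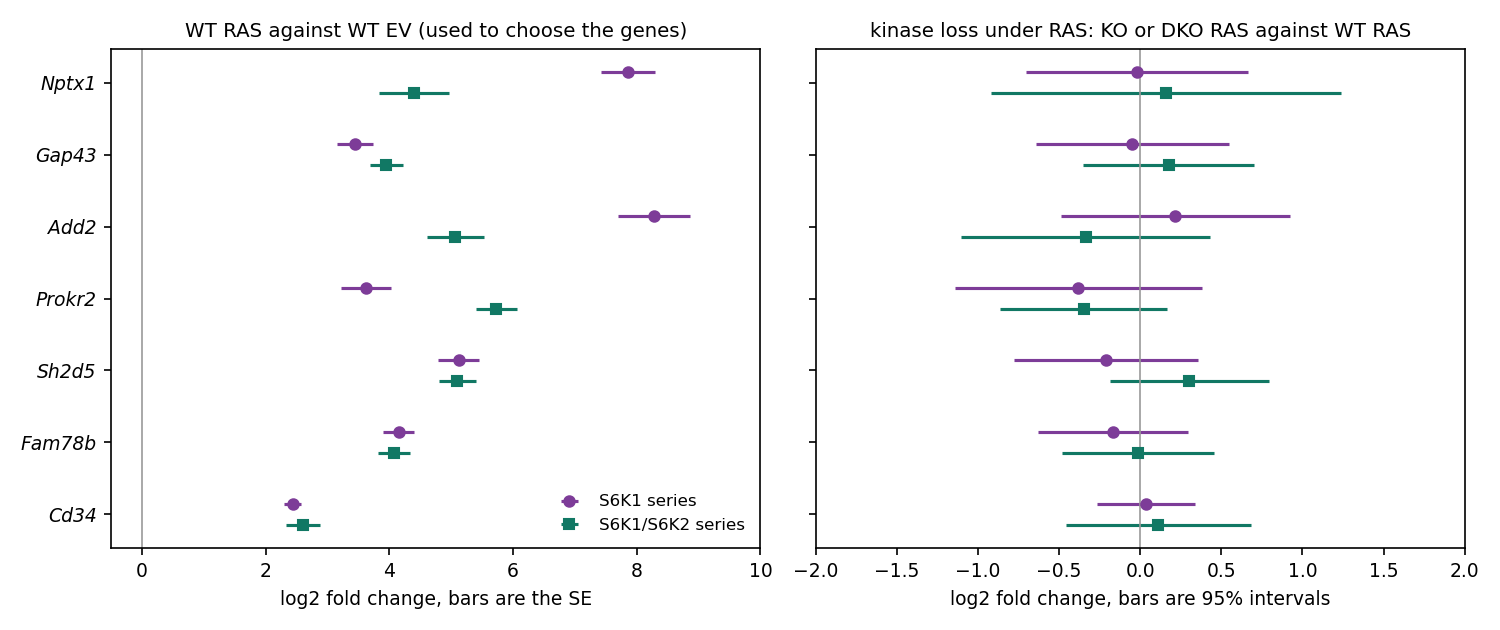
Left, log2 fold change of WT RAS against WT EV with its SE for the 7 genes, the contrast used to choose them, in which Add2 of the S6K1 series and Prokr2 of the S6K1/S6K2 series depend on the prior count because EV held so few reads. Right, log2 fold change of KO or DKO RAS against WT RAS with its 95% interval, where each of the 14 intervals includes 0.

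In the fit with the replicate block, macrophage markers and part of the blood progenitor list were lower after S6K1 loss. The summed level of 12 macrophage markers, none of which was at 0 in any group, lay between 703 and 3635 CPM in WT RAS and between 233 and 838 CPM in KO RAS of the S6K1 series, and 169 to 987 and 69.6 to 229 CPM in WT RAS and DKO RAS of the S6K1/S6K2 series. Between EV and WT RAS it overlapped, at 623 to 3151 and 703 to 3635 CPM in the S6K1 series, where none of the 12 was called without the block and 3 rose and 1 fell with it. None was called for RAS without the block in the S6K1/S6K2 series, and 3 fell with it. None of the 12 was called after S6K1 loss without the block, and 12 of 12 were lower with it. After loss of both kinases none was called without the block and 1 was lower with it. The sum of 11 blood progenitor markers lay between 63.3 and 173 CPM in WT RAS and between 43.8 and 68.3 CPM in KO RAS, and 5 of the 9 tested were lower with the block. Without it none of the 9 was called, and log2 fold changes ran from −2.44 (Ptprc) to 0.50 (Itga2b). Runx1 had −0.05 and Gata2 −0.12, and Kit and Myb were too low to test. Whether the lower genes of both lists came from separate cell types was not tested. The part of either list in the loss values of the 7 genes was not tested.

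How the 7 genes varied together was described last. Over the 18 libraries, with log2 CPM centred on each series, Pearson's r of the 21 pairs was between 0.89 (Nptx1 and Prokr2) and 0.99 (Sh2d5 and Fam78b). All points share the EV and RAS split on which the genes were chosen. Centred on each group, which takes that split away, r ranged from −0.44 (Nptx1 and Gap43) to 0.86 (Nptx1 and Cd34), with a median of 0.06, 3 pairs over 0.5 and 9 below 0. Within groups, libraries high in Nptx1 thus tended to be high in Cd34. For Nptx1 and Gap43 the widest opposite deviations were in EV of the S6K1/S6K2 series. There replicate 1 had 1.06 and −0.52 and replicate 3 had −1.64 and 0.40 (log2, Nptx1 then Gap43). In WT RAS, replicate 3 was below the group mean for both genes in each series (−0.17 and −0.41, −0.64 and −0.07). The value of −0.44 is therefore not a rule for every group. Libraries with the same number also share more than the group, as the next values show, so r describes these 18 libraries only.

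Between WT RAS and KO RAS of the S6K1 series, the spread of the 7 genes followed the replicate number. In WT RAS, replicate 2 was the highest library for 5 of 7 genes, and in KO RAS for 6 of 7. The highest library had the same number in WT RAS and KO RAS for 6 of 7 genes, and so had the lowest. Of the 21 deviations from the group mean in WT RAS, 19 had the same sign in the KO RAS library with the same number. Deviations of the same gene within a group are tied through their mean, so the 21 are not independent. Such shares were not counted over all genes. Over 13550 genes, deviations of same-numbered WT RAS and KO RAS libraries had r of 0.71, 0.41 and 0.61, so the pattern is not particular to the 7 genes. In the S6K1/S6K2 series, 11 of 21 did so between WT RAS and DKO RAS, which are not littermates. Between EV and WT RAS, which carry the same WT numbers, 12 of 21 had the same sign in the S6K1 series and 13 of 21 in the S6K1/S6K2 series. There the highest library had the same number for 6 of 7 genes and the lowest for 2 in the S6K1 series, and for 2 and 4 in the S6K1/S6K2 series.

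**Figure D4:**
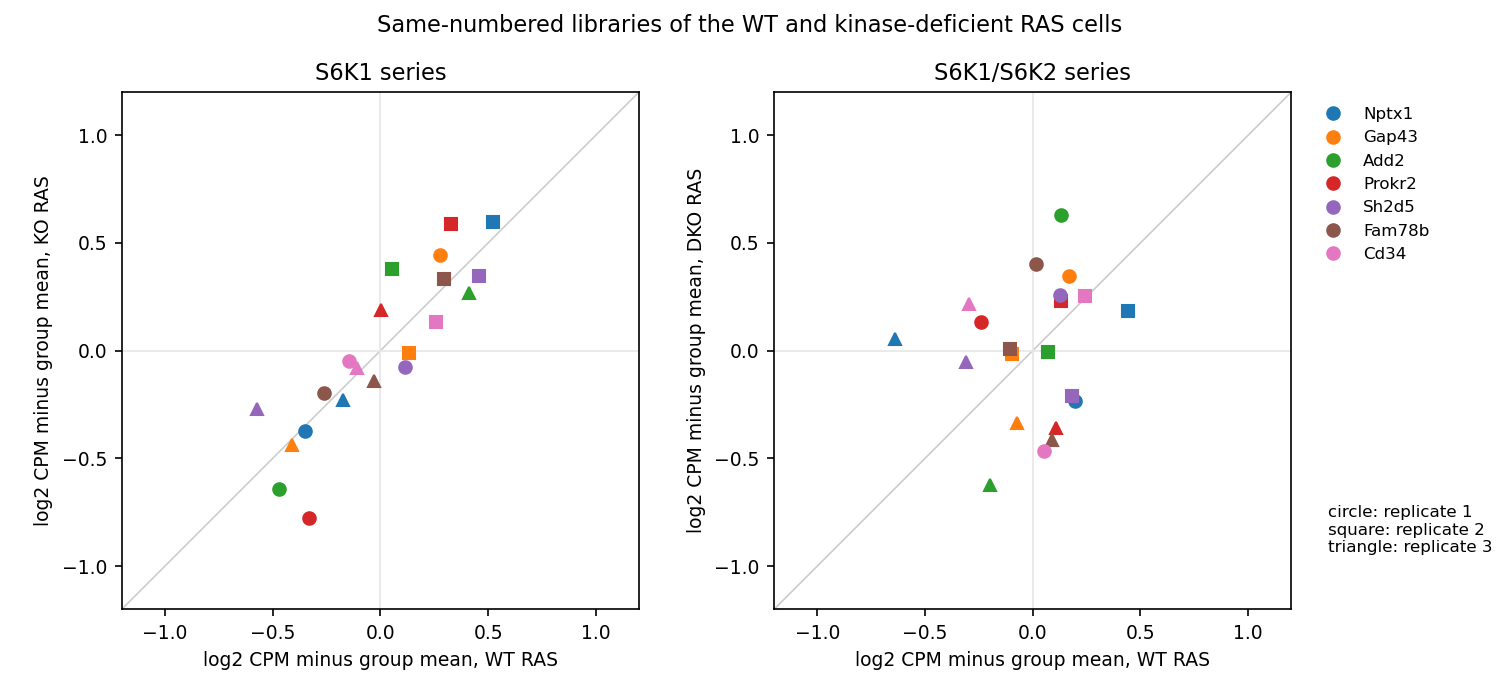
Deviation of log2 CPM from the group mean in WT RAS (horizontal) against that in the KO or DKO RAS library with the same number (vertical), with colours for the 7 genes, symbols for the replicate number and a grey line of equal values. In the S6K1 series the points lie along the line (19 of 21 share their sign), and in the S6K1/S6K2 series they do not (11 of 21).

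For each gene, the 3 genes with the most similar pattern over the 18 libraries were listed by Pearson's r, on log2 CPM centred on each series, among 13550 genes tested in both. Nptx1 was most like Bmp2 (0.98), Stc1 (0.98) and Dtnb (0.97), a bone morphogenetic protein, the hormone stanniocalcin 1 and a dystrobrevin. Gap43 was most like the protease gene Mmp10 (0.99), the chromatin protein gene Hmga1 (0.99) and the keratin gene Krt18 (0.99). Add2 was most like Btn1a1 (0.99), Fam167a (0.98) and Unc5d (0.97), of which Unc5d encodes a netrin receptor. Prokr2 was most like Sh3bgrl2, the ERK phosphatase gene Dusp6 and Rbpj (each 0.98). Sh2d5 was most like Fam78b, the acetylcholine receptor subunit gene Chrna1 and Upp1 (each 0.99), and Fam78b was most like Nmt2, Sh2d5 and Arhgap6 (each 0.99). Cd34 was most like Rbpj, the DNA-binding factor of Notch signalling (0.98), Scin (0.98) and Col18a1 (0.98). Between 181 (Nptx1) and 591 (Gap43) genes had an r over 0.9 with a member, so many other genes had nearly the same pattern, and all points share the RAS contrast.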

How the data were processed

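RNA of 18 MEF libraries in 6 groups of 3 was measured. The authors deposited 1 table of raw counts of reads per gene, with no normalization, and 55401 Ensembl genes. The methods of the study describe a stranded poly(A) library, single-end reads and alignment with TopHat to mm9, whereas the submitters' processing notes name mm10, STAR 2.7.1a and DESeq2 1.28.1. Of the identifiers, 22812 are absent from the NCBIM37 annotation, 8215 of them with a count, so the table follows a later annotation. Coordinates and promoter sequences are those of RefSeq for GRCm38.p6. Symbols were found for 32589 identifiers, which hold 99.14% of the counts.

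Libraries were grouped by the labels. Within each series of 9 libraries, genes were filtered with filterByExpr (minimum count 10), scaled by TMM and tested with the quasi-likelihood test of edgeR 4.0.16 (R 4.3.3, limma 3.58.1), with Benjamini-Hochberg adjustment over all tested genes and a threshold of 0.05. The difference of the loss effects was fitted over all 18 libraries. Log2 CPM used a prior count of 2. Intervals are 95% intervals, those of count ratios are exact, and ratios and floors of 3 counts cover counting error only. Totals of 8319445 to 14402442 counts set the precision for low genes. The code was tested on simulated data with 200 changed genes. The alternatives were DESeq2 1.42.0, its size factors, no filter, other sets of libraries, the replicate number as a block, and leaving out each library.

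The members and all 16 gene lists (188 distinct genes, 185 with an identifier) were chosen with earlier results of these data known. The genes named are the members, the targeted genes, the 3 genes most like each member, all listed relatives and prokineticin genes, and from the other lists the top called and most abundant genes. Exceptions chosen after values were seen are genes named for being at or near 0. A result for 1 listed gene is not reported here. Nothing in the labels says that libraries of a group came from separate animals. For its RAS experiments the study reports 3 independent embryo pairs from 3 mothers and replicates from different embryos, without naming the embryo of each library. The p-values measure the spread between these libraries. Every pair of replicates differed by more than sampling noise.

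Whether replicate numbers pair the libraries was checked by correlating deviations from the group means over 13550 genes. In the S6K1 series r was 0.69, 0.44 and 0.65 between EV and WT RAS and 0.71, 0.41 and 0.61 between WT RAS and KO RAS, which are littermates. In the S6K1/S6K2 series r was 0.37, 0.29 and 0.32 between EV and WT RAS, but 0.27, 0.47 and −0.03 between WT RAS and DKO RAS, which share only a number.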

Additional observations from a re-analysis of the deposited data

How the results depend on the processing

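The direction of the RAS change of the 7 genes held under every alternative run. Their choice on that contrast made this near certain, so nothing is read from it. No member was called for kinase loss under any alternative. The RAS change of Add2 in the S6K1 series moved to 7.75 and 8.71 on the log2 scale without EV replicate 2 and without EV replicate 3. Of the member values for loss, 152 kept their sign and 16 reversed, and of those for the difference between the series 101 kept it and 11 reversed, for values near 0. The only reversal outside left-out libraries was the DKO loss value of Fam78b without the filter, 0.0027. Leaving out 1 library, the S6K1 loss values ranged from −0.38 to 0.28 for Nptx1, −0.32 to 0.15 for Gap43, −0.44 to 0.028 for Sh2d5 and −0.046 to 0.17 for Cd34. The DKO loss values ranged from −0.093 to 0.39 for Nptx1, −0.010 to 0.33 for Gap43, −0.23 to 0.17 for Fam78b and −0.019 to 0.31 for Cd34. The differences ranged from −0.11 to 0.56 for Nptx1, −0.23 to 0.37 for Prokr2, −0.050 to 0.37 for Fam78b and −0.044 to 0.29 for Cd34.

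Counts over all genes moved more, and the cause was not tested. With the replicate number as a block, 5085 genes were called for RAS in the S6K1 series (1859 without), 583 for S6K1 loss (1 without) and 8 for loss of both kinases (3 without), where the libraries share only a number. The block changed no call of a member. DESeq2 called 97 and 10 genes for the 2 losses, the fit without the filter 108 and 11, the fit over 18 libraries 4 and 7, and the fit on the 6 libraries compared 0 for S6K1 loss. Leaving out 1 library gave 1043 to 1818 genes for RAS in the S6K1 series, with 1136 without EV replicate 2, 1185 without RAS replicate 1 and 1043 without RAS replicate 2. It gave 2050 to 4199 for RAS in the S6K1/S6K2 series, with 2316 without EV replicate 2, 2050 without RAS replicate 2 and 2195 without RAS replicate 3. It gave 0 to 22 for S6K1 loss, with 22 without WT RAS replicate 3 and 0 without any other compared library, 1 to 2 for loss of both kinases and 1 for the difference. Genes with EV libraries at or below 3 counts are limited by depth.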
